A study of Homo sapiens with 4 samples.

Results

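The cytosolic ribosomal protein genes encode the protein components of the 60S and 40S ribosomal subunits. Members were found by symbol: probes other than controls whose transcript accession belongs to a protein-coding gene named RPL or RPS followed by a number, or to RPSA, RPLP0, RPLP1 or RPLP2, with the RPS6K kinases, RPS27L, readthrough genes and pseudogenes left out. The binding protein RPS19BP1 was also left out because it is not a ribosomal protein. This gave 196 probes for 86 genes, of 26222 named probes for 17721 genes. Of the 86 genes, 53 belong to the large subunit (RPL and RPLP symbols) and 33 to the small subunit (RPS and RPSA), and 9 of them are paralogs that are expressed in few tissues or were copied from another member. Every 1 of the 196 probes passed the scanner software's test against background (called well above background here) on each array, so the filter on dim probes removed no member.

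The study asked what the actin-related proteins Arp5 and Arp8 do in the INO80 chromatin remodeling complex, using Nalm-6, an established human pre-B leukaemia cell line. Total RNA of each line was hybridised to a single-colour Agilent array. There were 4 arrays, 1 per group: wild-type cells, Arp5-knockout cells, Arp8-knockout cells, and cells labelled Arp8-over expression. All 4 were grown without an added oxidant. The ARP5 and ARP8 loci were disrupted by homologous recombination, and the fourth group is Arp8-knockout cells carrying a Tet-Off construct meant to restore and raise Arp8. Each knockout is a line established after gene targeting, so what the line acquired besides the deletion cannot be told apart from the deletion. With 1 array per group no difference below has a replicate check, no test was possible, and values are described beside the same values over all genes.

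The targeted genes were examined first. ACTR5, which encodes Arp5, had levels of -0.05 on the wild-type array, -4.90 on the Arp5-knockout array, -0.12 on the Arp8-knockout array and 0.05 on the array of the fourth group, where a level is log2 of the array signal minus the 75th percentile of that array. The Arp5 label is therefore borne out. ACTR8, which encodes Arp8, stood at -0.37, -0.39, -0.82 and -0.84 in the same order. It was 0.44 lower in the Arp8 knockout than in wild type on the log2 scale, and as low in the fourth group, where its label calls for a high value. Where the ACTR8 probes lie relative to the disrupted part and to the construct is not given in the sources used here. The array labelled Arp8-over expression is therefore called the Tet-Off array from here on, and no difference on it is read as an effect of raised Arp8.

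All 12 pre-B cell markers measured, among them VPREB1 and the surrogate light chain gene IGLL1, were well above background on every array. The summed linear level of the 12 was 154 in wild type, 163 in Arp5 knockout, 151 in Arp8 knockout and 165 on the Tet-Off array. IGLL1 was the highest, and the sum hides dimmer markers: in Arp8 knockout 3 of the 12 were 1.5-fold lower than in wild type, CD22 at -1.78, RAG2 at -0.69 and VPREB1 at -0.61, beside 5.65% of all genes. In Arp5 knockout CD22 was lower at -0.74, and on the Tet-Off array CD22 and RAG2 at -0.66 and -0.63, beside 3.92% and 5.32% of all genes. Of 6 T cell markers 4 were well above background, summing to 2.76, 3.14, 2.35 and 3.37 in that order. CD4 made up most of that sum and the defining genes CD3D and CD3G were not well above background on any array. The 5 myeloid markers summed to 0.118, 0.111, 0.183 and 0.169, with MPO not well above background and with LYZ at -5.16, -5.40, -3.81 and -3.85. On both arrays of Arp8-knockout origin 2 of the 4 measured myeloid markers were 1.5-fold higher than in wild type, beside 5.48% and 5.47% of all genes: LYZ at 1.35 and ITGAM at 0.94 in Arp8 knockout, and LYZ at 1.31 and CSF1R at 1.17 on the Tet-Off array. CSF1R at 0.53 and ITGAM at 0.50 were short of the fold on the other array of the pair, and CD14 stayed within 0.2. LYZ, ITGAM and CSF1R were dim, and the median myeloid level was -5.69 in wild type. At a level of -5.14 in wild type a probe of RPL10 read 56.3 units. Repeated spots under 100 units gave differences with a median SD between 0.40 and 0.43 over wild type, so the myeloid calls are uncertain. The part of the lineage markers in the differences below was not tested. Of the other lineages, the erythroid gene HBB and the epithelial or fibroblast genes EPCAM and COL3A1 were not well above background. KRT18, the only epithelial or fibroblast gene measured, differed from wild type by -0.03, -0.49 and -0.89, the last past 1.5-fold. Its level was -5.15 in wild type, so the same limit of dim signals holds for it. The erythroid markers summed to 0.0603, 0.0575, 0.0608 and 0.0576 and the epithelial or fibroblast markers to 0.0360, 0.0347, 0.0294 and 0.0240.

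Ribosomal proteins are needed in near-equal numbers, because each ribosome holds a copy of nearly all of them, and excess protein that is not assembled is degraded. Their mRNAs are among the most abundant of growing cells and share a short run of pyrimidines at the 5′ end (the 5′ TOP tract), through which growth signals control their translation as a class. In blood cells the dose of these proteins matters clinically, since loss of a copy of several of them causes Diamond-Blackfan anaemia.

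The tract is shown because it is a feature of the members that the symbol rule did not use. Sequences are from RefSeq (GRCh38.p14) and run from 45 bases before to 15 bases from the annotated gene start, with the pyrimidines that follow the start without a break in capitals. RPLP0 and RPS6 stand for the brightest members, and the other 5 are genes on which the differences below turn.
RPLP0 (chr12:120201097-120201156, minus strand): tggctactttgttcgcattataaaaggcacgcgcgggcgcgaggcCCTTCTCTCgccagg
RPS6 (chr9:19380222-19380281, minus strand): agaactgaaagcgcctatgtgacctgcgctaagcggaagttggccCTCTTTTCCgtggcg
RPL7A (chr9:133348173-133348232, plus strand): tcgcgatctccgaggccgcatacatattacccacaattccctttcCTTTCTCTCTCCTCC
RPL39 (chrX:119791616-119791675, minus strand): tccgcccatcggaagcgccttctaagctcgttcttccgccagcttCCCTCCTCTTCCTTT
RPL22 (chr1:6199581-6199640, minus strand): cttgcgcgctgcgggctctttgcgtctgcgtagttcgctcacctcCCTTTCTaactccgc
RPL22L1 (chr3:170870181-170870240, minus strand): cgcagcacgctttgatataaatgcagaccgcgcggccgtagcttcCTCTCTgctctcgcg
RPL7L1 (chr6:42879571-42879630, plus strand): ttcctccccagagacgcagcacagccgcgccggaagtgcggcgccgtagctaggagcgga
Each window holds the upstream promoter bases and the first bases of the 5′ UTR. The paralog RPL22L1 carries a tract as its parent RPL22 does, whereas RPL7L1 has none at its annotated start.

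The promoter table held 69 of the 86 members. A C at an annotated start followed by at least 4 pyrimidines was found in 48 of these 69 genes (69.6%), against 6.24% of 15843 protein-coding genes in the table. With a looser rule of at least 6 pyrimidines in a row between 10 bases before and 15 bases after a start, the shares were 85.5% and 32.1%. The letters CTTCCG, a core recognised by ETS family factors, were found on either strand of the 300 bases in 63.8% of the members and 29.7% of all genes. AAGATGG, a core of the YY1 motif, was found in 13% against 7.90%, and TATAAA in 10.1% against 12.4%. These are counts of letters, genes with several annotated starts counted once, and a window without a match says only that the letters are not in it.

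On all 4 arrays the members gave some of the strongest hybridisation signals. The median member level was 6.10 in wild type, 6.16 in Arp5 knockout, 6.10 in Arp8 knockout and 6.02 on the Tet-Off array, where the median of all genes stood between -2.48 and -2.41. In signal units, the median member probe read 134113 in wild type and the brightest 417780, and no spot was saturated. For 181 of the 196 probes the software took the value on all 4 arrays from the scan at lower gain and scaled it up. A level depends on the probe as well as on the mRNA, so the order of genes by level does not rank their mRNA amounts.

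In wild type the highest levels were those of RPS6, RPS2, RPLP0, RPL19 and RPS27, at 7.40, 7.30, 7.25, 7.19 and 7.07. RPS6, the small-subunit protein phosphorylated by S6 kinase, read 7.40, 7.51, 7.41 and 7.36 on the 4 arrays in the order wild type, Arp5 knockout, Arp8 knockout and Tet-Off, a range of 0.15. The lowest were RPL3L, RPL39L, RPL7L1, RPL27A and RPL26L1, at -4.17, 0.44, 1.79, 2.06 and 2.74. Of these, 4 are paralogs, and the value of RPL27A is the midpoint of a probe at 6.17 and a probe at -2.06, neither of which reads near it. RPL3L, which replaces RPL3 in heart and skeletal muscle, was the only member below the median of all genes, and the other 85 lay above it.

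**Figure D1:**
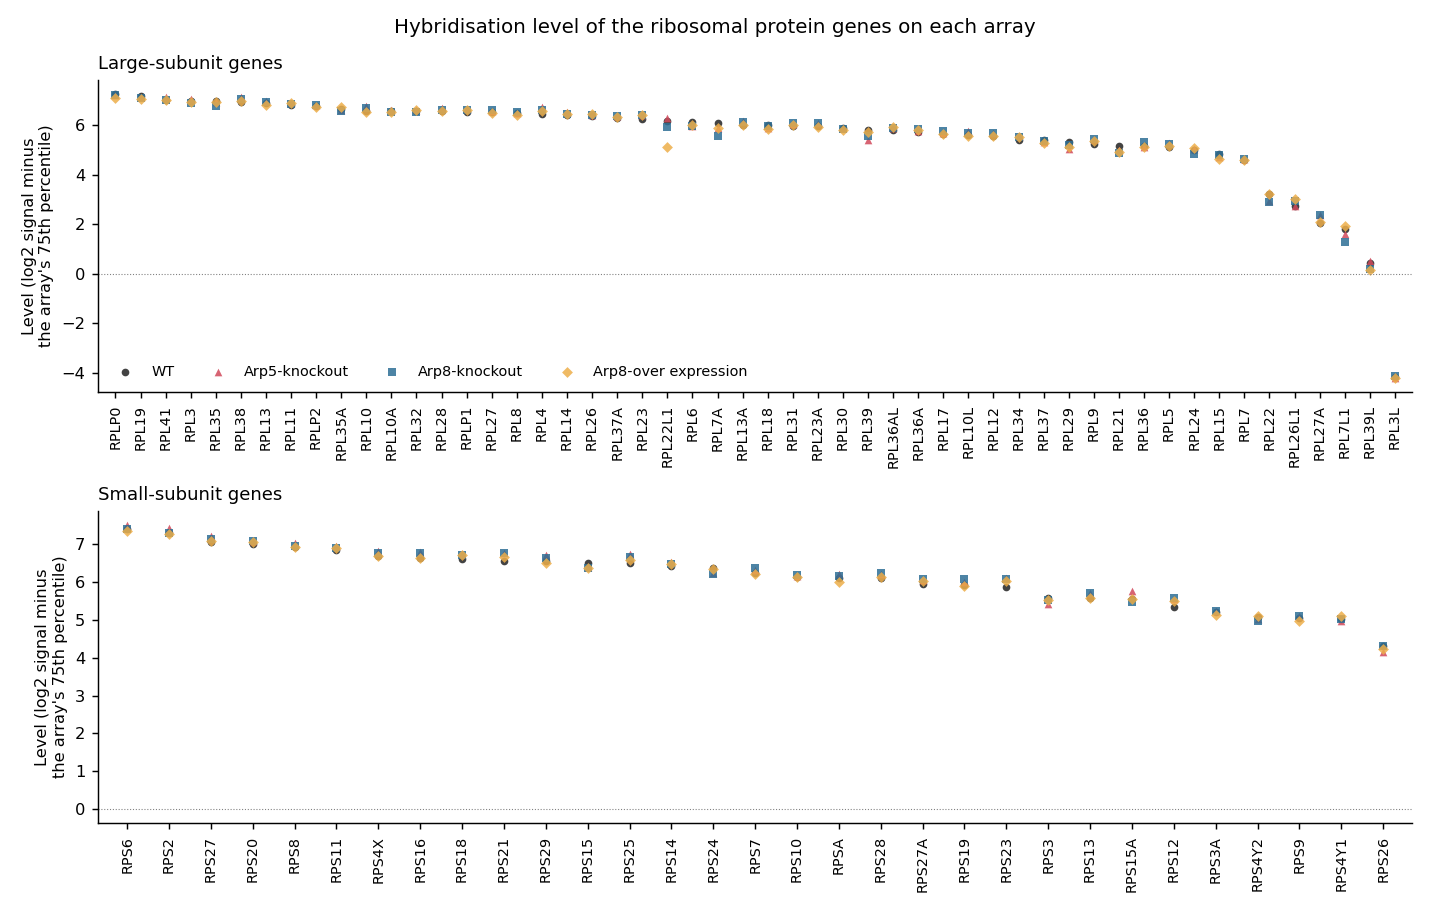
Level of each ribosomal protein gene (log2 signal minus the 75th percentile of its array, vertical axis) on the 4 arrays, with genes ordered by their wild-type level, large subunit above and small subunit below; members that are not reported by name are left out. The 4 symbols of most genes overlap, and RPL22L1 on the Tet-Off array (Arp8-over expression in the key) is the point furthest from its gene's other arrays.

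The range of levels over the 4 arrays is given for the members only and is not set against other genes here. For 72 of the 86 genes the highest and lowest of the 4 levels lay within 0.25 of each other on the log2 scale, and for 83 within 0.5. The exceptions to the wider limit were RPL22L1, RPL7L1 and RPL7A, with ranges of 1.15, 0.66 and 0.53. The Arp5-knockout array was the highest of the 4 for 42 members and the lowest for 8. The Tet-Off array was the lowest for 32 members, and wild type for 31. These counts hold for the scaling used here only, since a factor per array moves all members alike.

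The error of the array bears on how small a difference can be read. Probes printed in at least 3 places on the array, with signals of at least 500 units, gave differences whose SD between places had a median of 0.03 in each comparison. The error that the scanner software attaches to member spots was 10.0% of the signal at the median, which is 0.19 on the log2 scale for a difference of 2 arrays. The lowest software error was also 10.0% on each array, so it is close to a fixed share of the signal and not a measured spread. Neither the SD nor the software error covers the spread between cultures, which 1 array per group cannot show. Differences under about 0.2 are therefore given as values only.

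Arp5-knockout cells were compared with wild type first. No ribosomal protein gene was 1.5-fold higher or lower, against 4.24% of 13690 genes measured that were higher by that much and 3.92% that were lower. At the lower fold of the alternatives, a log2 difference of 0.3219 (written 0.32 below), no member was higher and 1, RPL39, was lower, against 13.1% and 11.9% of all genes. Other genes as bright as the members, with a wild-type level of at least 4 (a bound chosen after the data were seen, which 80 of the 86 members also meet), were past 0.32 in 7.48% of 481 cases. Of these 481 genes 3 were 1.5-fold higher and 1 was lower, so at that fold the absence of members is near the share of genes as bright. At 0.32 the share of members was below that of both backgrounds.

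The median difference of the 86 genes was 0.08 against 0.02 for all genes, with 62 members above 0 and 24 below. It was 0.06 for the large subunit and 0.11 for the small subunit. Quantile normalization, which brought the median of all genes down as well, put the members' median at -0.00. The members' median minus that of all genes was 0.07, and 0.01 with quantile normalization, above 0 under every setting tried. Settings that change only the fold or a factor per array cannot alter this value, so their agreement adds nothing. The median of the other bright genes was 0.06, so part of this offset is shared by genes as bright. RPL39, a short peptide of the exit tunnel, read 5.80 in wild type, 5.40 in Arp5 knockout, 5.55 in Arp8 knockout and 5.71 on the Tet-Off array. Its 2 probes gave differences of -0.44 and -0.35 in Arp5 knockout over wild type. After RPL39 at -0.40 came RPL29 at -0.3151, RPL22 at -0.28 and RPL7A and RPL7L1 at -0.20 each. Both RPL29 and RPL27A, at 0.3173, were just short of 0.3219. The highest were RPL27A, RPL4 at 0.28, RPS23 at 0.25, RPS25 at 0.24 and RPL9 at 0.22.

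In Arp8-knockout cells no member was 1.5-fold higher or lower than in wild type either, beside 5.48% of 13476 genes that were higher and 5.65% that were lower. At 0.32 0 members were higher and 3 were lower, beside 15.6% and 14.0% of all genes. Among the 481 other bright genes 2 were 1.5-fold higher and 11 were lower, and 8.94% were past 0.32 in either direction. The 3 members were RPL7A, RPL7L1 and RPL22, all of the large subunit, and all 3 also lay below their wild-type level in Arp5 knockout, by less.

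RPL7A, an rRNA-binding protein of the large subunit, read 6.07 in wild type, 5.87 in Arp5 knockout, 5.54 in Arp8 knockout and 5.86 on the Tet-Off array. The gene difference of Arp8 knockout over wild type was -0.53, and its probes split into 3 that gave -0.52, -0.53 and -0.55 and the brightest, which gave -0.19. RPL22, which binds rRNA near the exit tunnel and is dispensable for translation in many cells, read 3.22, 2.94, 2.89 and 3.22, a difference of -0.33 in Arp8 knockout. Its 3 probes gave -0.22, -0.33 and -0.75 in order of falling signal, so the dimmest alone was past 1.5-fold. The next lowest after these were RPL21 and RPL39L at -0.27 each. High values were those of RPL27A at 0.30, RPS12 at 0.23 and RPS21 and RPS23 at 0.21 each. Over all 86 genes the median was 0.05 against 0.03 for all genes. The members' median minus that of all genes was 0.02, and -0.02 with quantile normalization, so its sign depends on the setting.

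The Tet-Off array was set against wild type in the same way. No member was 1.5-fold higher and 1 was lower, beside 5.47% and 5.32% of 13602 genes, and at 0.32 the counts were again 0 and 1 beside 15.4% and 13.2%. Of the 481 other bright genes 2 were 1.5-fold higher and 4 were lower, a share near that of the members, and 9.56% were past 0.32. The member was RPL22L1 at -1.07, the only member past 2-fold in any of the 4 comparisons. The median over the members was -0.01 against 0.04 for all genes. A factor per array moves all genes alike, so the sign of the members' median by itself says little. Their median minus that of all genes was -0.05, and below 0 under every setting tried. Here too, settings that change only the fold or a factor per array could not alter it. The next lowest were RPL39L at -0.28, RPL29 at -0.24, RPL21 at -0.23 and RPL7A at -0.21, and the highest were RPL26L1 at 0.28, RPL23 at 0.17, RPS23 at 0.16 and RPS12 and RPL7L1 at 0.15 each.

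Arp8 knockout over the Tet-Off array compares the 2 arrays of Arp8-knockout origin and does not use the wild-type array. ACTR8 differed by only 0.03 between them, so the comparison is not read as Arp8 absent against Arp8 restored. Here 1 member was 1.5-fold higher, RPL22L1, and 1 was lower, RPL7L1, beside 3.15% and 3.85% of 13439 genes. Of the 481 other bright genes 2 were 1.5-fold higher and 8 were lower, a share near that of the members. RPL7L1, at 1.79 in wild type, is itself below the bright bound of 4, so it is not of like brightness. At 0.32 1 was higher and 3 were lower, beside 11.3% and 11.6%, and 8.32% of the other bright genes passed in either direction. The additional genes at 0.32 were RPL22 at -0.33 and RPL7A at -0.3230, and RPL22 is below the bright bound too. RPL24 followed at -0.25, and high values besides that of RPL22L1 were RPL27A at 0.25 and RPS19 at 0.20. The members' median was 0.05 against 0.00 for all genes. The lineage markers differed in this comparison too, with CD22 at -1.12, VPREB1 at -0.75, CD79A at -0.63 and DNTT at 0.60 past 1.5-fold among the 12 pre-B markers, and CSF1R at -0.64 among the 4 myeloid ones. CSF1R was dim, and repeated spots under 100 units had a median SD of 0.35 in this comparison. The part of the lineage markers in the calls of RPL22L1 and RPL7L1 was not tested. The 3 comparisons over wild type share that array, so a member that is low in more than 1 of them, as RPL7A is, was not measured independently each time.

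**Figure D2:**
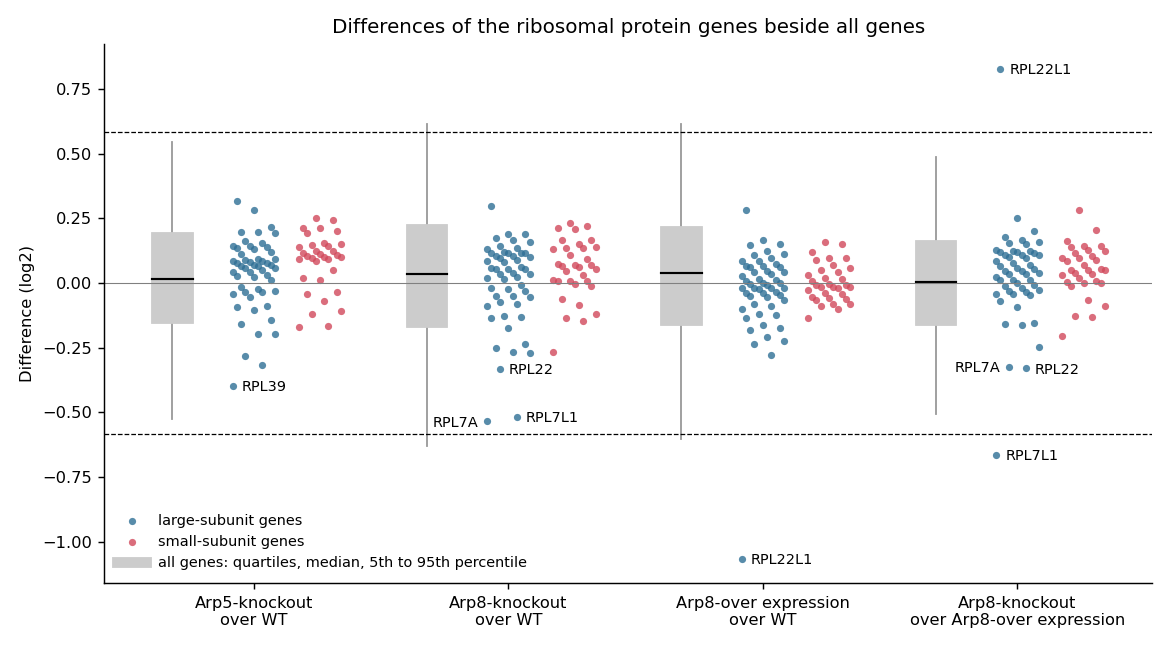
Difference of each ribosomal protein gene (log2, vertical axis) in the 4 comparisons, with large-subunit genes in blue and small-subunit genes in red beside the spread over all genes in grey; dashed lines mark 1.5-fold and members past 0.32 are named. Most members lie within 0.25 of 0, and only RPL22L1 and RPL7L1 lie outside the dashed lines. The Tet-Off array bears its deposited label.

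How far the members stood from 0 was set beside other genes. The median size of a difference was 0.11 in Arp5 knockout over wild type for the members, 0.11 for the other bright genes and 0.17 for all genes. It was 0.10, 0.12 and 0.20 in Arp8 knockout over wild type and 0.06, 0.13 and 0.19 on the Tet-Off array. In Arp8 knockout over that array it was 0.09, 0.11 and 0.16. The members were thus closer to 0 than all genes in each comparison, and level with the other bright genes in Arp5 knockout. The mitochondrial ribosomal proteins, at 0.10, 0.13, 0.13 and 0.09 in the 4 comparisons, were as close to 0 as the members in the first and the last. The comparison with genes of like brightness is the closer one, because the error depends on the signal. Repeated spots under 100 units had a median SD between 0.35 and 0.43, but those of 100 to 500 units only between 0.05 and 0.06. Whether narrower mRNA control or the measurement at the top of the signal range gave the smaller values was not tested.

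**Figure D3:**
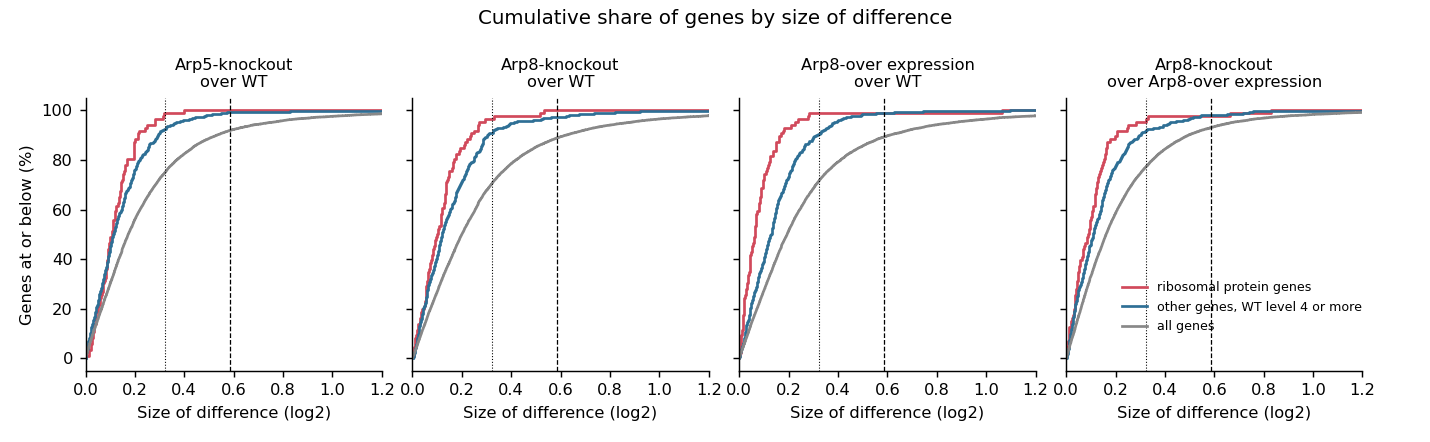
Cumulative percentage of genes (vertical axis) whose difference is at most the size on the horizontal axis (log2), for the 86 ribosomal protein genes in red, 481 other genes with a wild-type level of at least 4 in blue and all genes in grey; dotted and dashed lines mark 0.32 and 1.5-fold. The median size of the Tet-Off array over wild type was 0.06 for the members, 0.13 for the other bright genes and 0.19 for all genes.

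The stalk of the large subunit, which recruits the elongation factors, is formed by RPLP0, RPLP1 and RPLP2 on a base that includes RPL12. RPLP0 is also the mRNA to which the study normalised its PCR, under the name 36B4. It read 7.25 in wild type, 7.22 in Arp5 knockout, 7.22 in Arp8 knockout and 7.09 on the Tet-Off array. The gene differences were -0.04, -0.03 and -0.16 over wild type, and its 3 probes did not share a sign in either knockout. The RPLP0 probe printed 10 times gave 0.09 ± 0.02 (SD, n = 8 spots left after outlier spots) in Arp5 knockout and 0.09 ± 0.04 (SD, n = 9 spots) in Arp8 knockout, whereas the gene median was just below 0. RPLP1 differed from wild type by 0.09, 0.08 and 0.04, RPLP2 by 0.06, 0.04 and -0.02 and RPL12 by 0.13, 0.12 and -0.01 in the same order. Every stalk difference stayed within 0.2.

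RPL5 and RPL11 join 5S rRNA in the particle that also binds MDM2 when ribosome assembly is disturbed. RPL5 read 5.11, 5.27, 5.24 and 5.14 and RPL11 read 6.79, 6.87, 6.85 and 6.87 on the 4 arrays, with the Tet-Off array last. Their differences from wild type ran from 0.03 to 0.16, within the error that the software gives.

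Another group rings the exit of the peptide tunnel. These 8 genes had medians of 0.00, -0.03 and -0.00 over wild type in the order Arp5 knockout, Arp8 knockout and Tet-Off, beside 0.06, 0.04 and -0.01 for the large subunit, with RPL39 lowest in the first at -0.40 and RPL22 lowest in the second at -0.33. RPL23A, a docking site for factors that meet the nascent chain, was the highest in both knockouts, at 0.14 each. On the Tet-Off array the 8 genes ran from -0.12 for RPL19 to 0.08 for RPL26. None passed 1.5-fold in any comparison, beside 3.15% to 5.65% of all genes in each direction, and none of 8 is near that share.

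The 14 genes of the 40S head, the part of the small subunit that meets the mRNA entry and the tRNAs, had medians of 0.11, 0.12 and -0.01. In Arp5 knockout RPS3 was lowest at -0.17 and RPS25 highest at 0.24, and in Arp8 knockout RPS12 was highest at 0.23. RPS15 at -0.13 and RPS12 at 0.15 bounded the Tet-Off array. None of the 14 passed 0.32 in any comparison, beside 7.48% to 9.56% of the other bright genes, and none of 14 is near that share.

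Of the 19 members in which mutations cause Diamond-Blackfan anaemia, none passed 0.32 in any comparison. The share of the other bright genes was 7.48% to 9.56%, and a list of 19 is too short for none to stand apart from it. The medians of the 19 were 0.04, 0.05 and -0.02 over wild type and 0.06 in Arp8 knockout over the Tet-Off array. RPS19, the gene most often mutated in that disease, read 5.93, 6.01, 6.10 and 5.89. Extremes were RPS26 at -0.17 and RPS15A at 0.20 in Arp5 knockout, RPS19 at 0.17 in Arp8 knockout, and RPL15 at -0.18 and RPL35A at 0.09 on the Tet-Off array.

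The paralogs held both members past 1.5-fold. RPL22L1 encodes a close relative of RPL22 that can take its place in the large subunit. Its only probe read 142831 units in wild type, 149467 in Arp5 knockout, 122603 in Arp8 knockout and 69326 on the Tet-Off array, which are levels of 6.17, 6.26, 5.93 and 5.11. Its differences were 0.09 in Arp5 knockout, -0.24 in Arp8 knockout and -1.07 on the Tet-Off array, all over wild type, and 0.83 in Arp8 knockout over that array. On the Tet-Off array the 3 probes of RPL22 gave 0.04, -0.00 and -0.47 over wild type, the last from the dimmest. In Arp8 knockout both RPL22 and RPL22L1 were below wild type, at -0.33 and -0.24. A single probe gives no check within the gene.

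RPL7L1 encodes a nucleolar relative of RPL7 that acts in the assembly of the large subunit and is not a usual part of mature ribosomes. It read 1.79 in wild type, 1.59 in Arp5 knockout, 1.27 in Arp8 knockout and 1.93 on the Tet-Off array. The Arp8-knockout array was the lowest and the Tet-Off array the highest. The difference between these 2 was -0.66, with -0.63 and -0.70 from its 2 probes, and over wild type the Arp8 knockout gave -0.59 and -0.45. RPL7 itself read 4.59, 4.63, 4.61 and 4.60, a range of 0.04.

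The other paralogs stayed below 0.32. RPL26L1 read 2.74, 2.73, 2.94 and 3.03, higher than wild type by 0.19 and 0.28 on the 2 arrays of Arp8-knockout origin, while its parent RPL26 differed by 0.03 and 0.08. RPL39L read 0.44, 0.52, 0.18 and 0.17, a difference of -0.27 in Arp8 knockout, while RPL39 was lowest in Arp5 knockout. RPL36AL read 5.79, 5.87, 5.89 and 5.94 and RPL36A 5.72, 5.77, 5.82 and 5.79. RPL3L differed from wild type by at most 0.06 in size and RPL3 by at most 0.08.

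Whether the probes of some near-identical pairs tell the genes apart was not tested, since probe positions were not available. RPL10L, an intronless copy of RPL10 known from testis, read 5.58, 5.77, 5.69 and 5.54, and its differences of 0.19, 0.12 and -0.04 were close to those of RPL10, at 0.20, 0.11 and -0.05. The coding sequences of the pair are nearly alike, and RPL10L is reported as uncertain. RPS4Y1 and RPS4Y2, at 5.02 and 5.09 in wild type, resemble RPS4X in sequence and are uncertain too. Over wild type RPS4Y1 differed by -0.04, -0.00 and 0.09, RPS4Y2 by -0.07, -0.12 and 0.01 and RPS4X by 0.11, 0.07 and -0.02. Members with many processed pseudogenes, RPL21 with its 10 probes among them, can also gather signal from related transcripts. RPL21 read 5.14 in wild type and 4.88 in Arp8 knockout, and 8 of its 10 probes were below wild type in Arp5 knockout and 10 in Arp8 knockout.

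How far probes of a gene gave the same value was looked at next. For the 55 members with at least 2 probes, the median spread between the lowest and the highest probe difference was 0.09, 0.11 and 0.10 over wild type and 0.10 in Arp8 knockout over the Tet-Off array. The spread was over 0.5 in 0, 2, 3 and 0 genes in that order of comparisons, and all probes of a gene had the same sign in 42, 39, 32 and 42 of the 55. The spread between probes is thus of the size of the members' own median difference, and signs of small differences cannot be read. The widest was that of RPL10, where 4 probes read between 135518 and 222512 units over the arrays and the fifth, A_24_P6305, read 56.3 in wild type, 64.0 in Arp5 knockout, 28.0 in Arp8 knockout and 23.3 on the Tet-Off array. That probe gave -1.03 and -1.30 on the last 2 arrays over wild type, where the other 4 lay between -0.10 and 0.13. RPL31 likewise had a probe of 814 units in wild type that gave 0.57 in Arp5 knockout, against 0.09 and 0.11 from its 2 brighter probes. RPL27A, the highest member in both knockouts, rests on a probe of 476 units and a probe of 142931 units, which gave 0.31 and 0.33 in Arp5 knockout but -0.19 and 0.28 on the Tet-Off array.

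**Figure D4:**
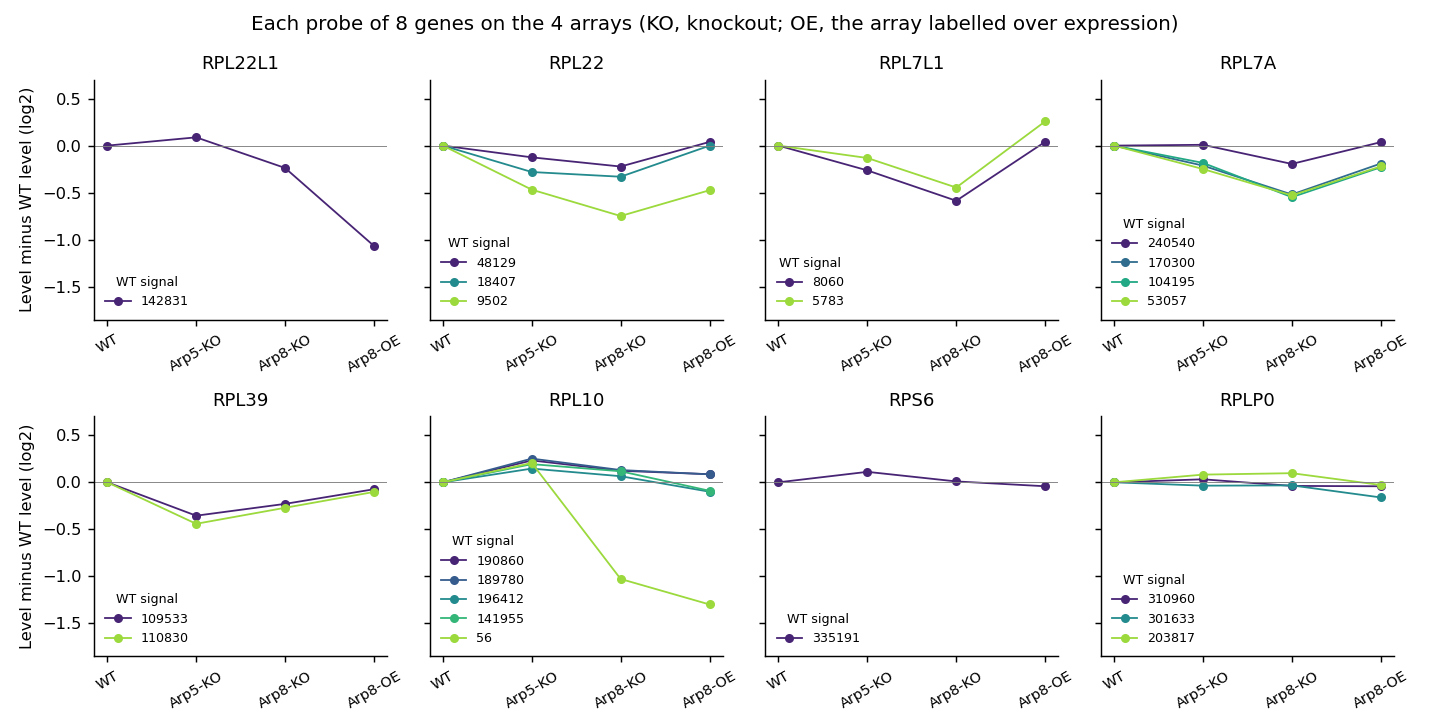
Level of each probe minus its own wild-type level (log2, vertical axis) on the 4 arrays for 8 members, with a line joining the values of 1 probe and its wild-type signal in the key. The 3 dimmer RPL7A probes and both RPL7L1 probes dip on the Arp8-knockout array, the RPL22L1 probe drops on the Tet-Off array, and an RPL10 probe of 56 units departs from the other 4.

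Bright probes showed the smaller differences. Among the 65 brightest of the 196 probes the median size of the difference was 0.10, 0.07 and 0.05 over wild type, and among the 66 dimmest 0.14, 0.18 and 0.12. Within genes, the dimmest probe had the larger difference in size than the brightest in 31, 34 and 30 of the 55 genes over wild type, and in 40 of 55 in Arp8 knockout over the Tet-Off array. The counts over wild type are not far from an even split. In Arp8 knockout over wild type RPL22 and RPL7A are examples, and RPL21, RPL29, RPL15 and RPL18 are among the genes that went the other way. Whether the brightest probes understate changes near the top of the range was not tested.

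Genes that work with the ribosomal proteins were then described. The ribosomal protein FAU, which is made as a fusion with a ubiquitin-like peptide and carries another symbol, read 6.0 in wild type, 6.16 in Arp5 knockout, 6.20 in Arp8 knockout and 6.10 on the Tet-Off array. Its differences over wild type were 0.16, 0.20 and 0.10.

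The 25 translation factors and other genes with TOP mRNAs had medians of 0.07, -0.02 and -0.08 over wild type, and none passed 1.5-fold in any comparison. In each direction 3.15% to 5.65% of all genes passed, and 1 to 11 of the 481 other bright genes. None of 25 is near the latter share. EEF1A1, the factor that delivers tRNAs, read 5.70, 5.84, 5.75 and 5.62. EIF3L, a subunit of the initiation factor eIF3, was the lowest in both knockouts, with levels of 4.63, 4.27, 4.24 and 4.28 and differences of -0.37 and -0.39. EEF1D at 0.29 and EIF3K at 0.31 were the highest in Arp5 and Arp8 knockout, and EIF2S3 was the lowest on the Tet-Off array at -0.41.

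Non-coding genes that host small nucleolar RNAs and have TOP starts had the highest median of these lists in Arp5 knockout. The 7 measured had a median of 0.24 in Arp5 knockout, 0.10 in Arp8 knockout and -0.02 on the Tet-Off array. In Arp5 knockout 3 of the 7 passed 1.5-fold upward, beside the 4.24% over all genes, and none did in the other comparisons. SNHG12 read 3.02 in wild type, 3.73 in Arp5 knockout, 3.45 in Arp8 knockout and 3.0 on the Tet-Off array. EPB41L4A-AS1 read 3.54, 4.18, 4.02 and 3.78, and SNHG1 read 3.61, 4.23, 4.03 and 3.92. Their differences in Arp5 knockout were 0.72, 0.64 and 0.62, while GAS5, the best known of the class, gave 0.13. The call of EPB41L4A-AS1 was lost under quantile normalization, at 0.58, and under normexp background correction combined with quantile normalization, at 0.56. That of SNHG1 was lost under both, at 0.55 and 0.53, and under median scaling, at 0.58.

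Of 61 ribosome biogenesis factors 60 were measured, with medians of 0.06, 0.07 and 0.01. None was 1.5-fold higher in any comparison, beside 3.15% to 5.48% of all genes. PES1, a factor of rRNA processing for the large subunit, was lower in Arp5 knockout at -0.63, but its brighter probe gave -0.12. TEX10 was lower in Arp8 knockout at -0.91 and on the Tet-Off array at -1.03, where MDN1 was lower at -0.71. These are 1, 1 and 2 of the 60 genes over wild type, beside 3.92%, 5.65% and 5.32% of all genes. EBNA1BP2 at 0.36, EIF6 at 0.41 and SENP3 at 0.36 were the highest in the 3 comparisons over wild type.

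Of 15 genes of the RNA polymerase I machinery, which makes the large rRNA precursor, 14 were measured, with medians of 0.06, 0.03 and -0.03. TAF1C was the only gene past 1.5-fold, at 0.66 in Arp5 knockout, beside 4.24% of all genes that were higher there, and TAF1D followed it at 0.52. TAF1A at -0.25 was the lowest in Arp5 knockout and POLR1E the lowest on the other 2 arrays, at -0.42 and -0.34.

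The 76 mitochondrial ribosomal proteins, which build a separate ribosome and lack the TOP class control, had medians of 0.04, 0.05 and 0.10. None was 1.5-fold higher in any comparison, beside 3.15% to 5.48% of all genes. Over wild type 0, 3 and 1 were lower, beside 3.92%, 5.65% and 5.32% of all genes. MRPL1 was lower in Arp8 knockout over the Tet-Off array at -0.65, beside 3.85%, a call lost with normexp and quantile normalization combined. MRPL50 was the lowest in Arp8 knockout at -1.05 and on the Tet-Off array at -0.93, and MRPS27 the lowest in Arp5 knockout at -0.50. In Arp8 knockout MRPS27 at -0.78 and MRPS10 at -0.59 were the other 2 lower genes, and MRPS10 was short of 1.5-fold under several alternatives, at -0.37 with its brightest probe.

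**Figure D5:**
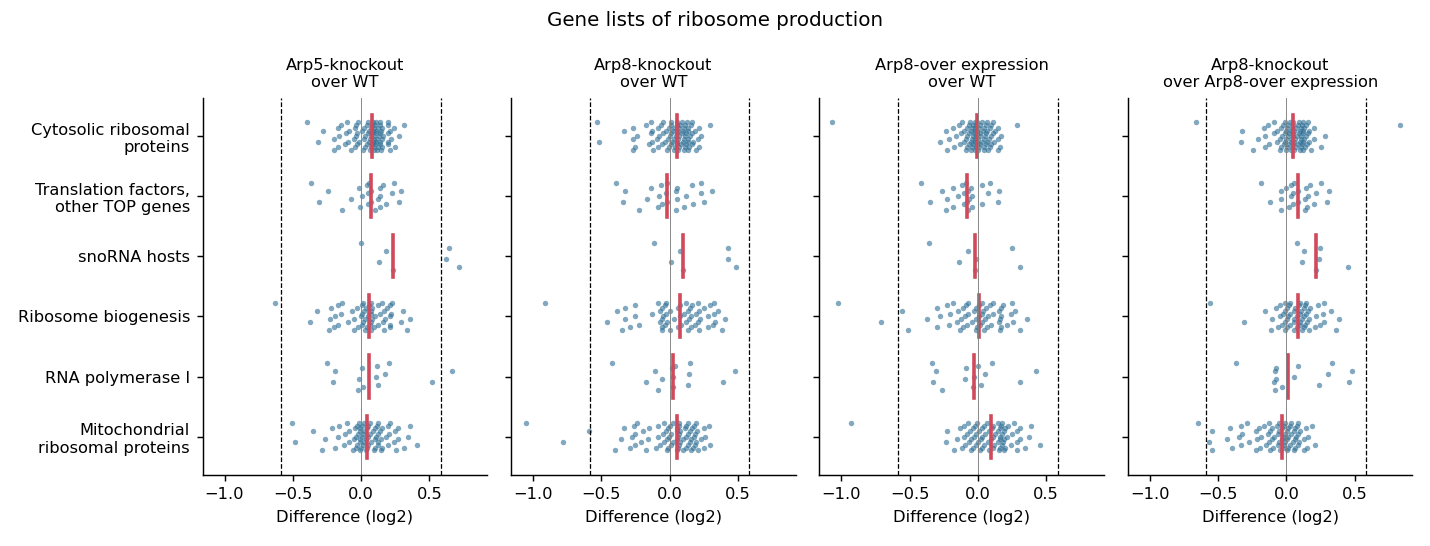
Difference of each gene (log2, horizontal axis) in 6 lists of ribosome production in the 4 comparisons, with the list median as a red bar and 1.5-fold as dashed lines. The cytosolic ribosomal proteins are at the top, and 3 snoRNA host genes lie past the line in Arp5 knockout.

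Members with and without a TOP tract at an annotated start did not separate. The 48 genes with the tract had medians of 0.09, 0.06 and 0.00 over wild type, and the 21 without it 0.06, 0.07 and -0.02. The extremes came from either side: RPL39, RPL7A, RPL22 and RPL22L1 have the tract and RPL7L1 does not.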

How the data were processed

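Per the file headers, the intensity values that the authors deposited come from Agilent Feature Extraction (10.5.1.1), which subtracted background and removed trends within each array without bringing the arrays to 1 scale. The authors' value table holds the same intensity values times a factor per array (0.847 for wild type, 0.838, 0.825 and 0.807 for Arp5 knockout, Arp8 knockout and Tet-Off). Its column medians were 127, 128, 122 and 119, and how the factors were set is not stated.

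Of 43376 non-control spots, outlier spots (116, 153, 63 and 152) were left out. Signals were divided by the array's 75th percentile and taken to log2, spots of a probe were averaged, and dim probes were raised to the lowest level well above background. Accessions were matched to RefSeq names (GRCh38.p14), naming 26222 of 41000 probes. Gene levels are medians over probes. A difference counted as measured where the brighter array was well above background. A call was 1.5-fold.

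The members and lists were chosen with earlier results of these data known. Named genes were the 5 highest and lowest wild-type levels, the 5 highest and lowest differences per comparison, all calls, all of the 5S particle, stalk and paralogs, RPLP0, and the extremes of the other lists. Some genes under this rule are not reported here by name; counts and medians include them. All 4 arrays lay on 1 slide that was scanned once, so slide and scan do not differ between groups, but the position on the slide and the group cannot be told apart. The steps were tested on simulated data. Python 3.11.15 with numpy 2.4.6 and pandas 2.3.3 and R 4.3.3 with limma 3.58.1 were used.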

Additional observations from a re-analysis of the deposited data

How the results depend on the processing

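With 1 array per genotype a paired analysis was not possible. Medians that moved by no more than 0.0347 (the largest median SD of repeated bright spots) are not listed. The members' median in Arp5 knockout over wild type (0.0827) became -0.0018 with quantile normalization, 0.0388 with median scaling and 0.0443 with the authors' value table. With normexp and quantile normalization combined it became 0.0185. In Arp8 knockout it became 0.0165 with quantile normalization and 0.0905 with median scaling, and on the Tet-Off array -0.0454 with quantile normalization, 0.0425 with median scaling and -0.0548 with the authors' value table. It kept its sign in Arp8 knockout over that array, from 0.03 to 0.07. Median scaling and the authors' factors move all genes alike: the members' median minus that of all genes was 0.07, 0.02, -0.05 and 0.05 in the 4 comparisons with these and in the main setting, and 0.01, -0.02, -0.08 and 0.04 with quantile normalization. Counts of members past the fold changed as follows. At the lower fold (0.32 on the log2 scale), 1, 3 and 3 members were lower in Arp5 knockout over wild type, Arp8 knockout over wild type and Arp8 knockout over the Tet-Off array, and at 2-fold the last comparison had 0 higher and 0 lower. In Arp8 knockout over wild type 1 was lower with normexp and quantile normalization combined, 1 with the brightest probe and 2 with the dimmest probe. The dimmest probe, a setting chosen after the data were seen, also gave 2 lower on the Tet-Off array. Without the paralogs, no member passed in any comparison (0 lower there, 0 higher and 0 lower in Arp8 knockout over it), and with only genes of at least 2 probes RPL22L1 dropped out (0 lower and 0 higher). All-gene counts differed by over 1.5 times with other folds, without filter (1272 higher in Arp5 knockout against 580) and with normexp and quantile normalization combined (225). RPL22L1 ranged from -1.11 to -1.02 on the Tet-Off array and RPL7L1 from -0.70 to -0.63 in Arp8 knockout over it. The causes were not tested. The alternative that keeps probes by their own gene name could not be run, since the files used here have no such column.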

Other observations

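The position of the members was looked at through the order of genes in RefSeq, after TEX10 and MRPL50 were seen to be low on the same 2 arrays. For each member the median difference of the 10 measured genes on either side was taken. Over the 86 members this neighbour median ran from -0.15 to 0.22 in Arp5 knockout over wild type, from -0.32 to 0.31 in Arp8 knockout and from -0.28 to 0.30 on the Tet-Off array. RPS14 had the lowest neighbours in Arp8 knockout and RPL8 the highest, and their own differences were 0.06 and 0.05. RPS6 had the lowest neighbours on the Tet-Off array, where its own difference was -0.04.

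TEX10 and MRPL50 lie in a stretch of chromosome 9, from ZNF484 to MUSK, in which the neighbour median passed 1.5-fold downward on both arrays of Arp8-knockout origin. Of its 74 measured genes 49 were 1.5-fold lower on both arrays, and since the stretch was defined by these values, a high count follows from the choice. The median of the 74 genes in Arp5 knockout over wild type, which was not used to define it, was -0.02. The stretch holds 0 ribosomal protein genes. The 4 members on the same chromosome outside it are RPS6, RPL35, RPL12 and RPL7A. A change in copy number of the stretch was not tested, since no DNA was measured here.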
